A study of Homo sapiens with 6 samples.

Results

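The genes described here encode the collagens, the laminins and the integrins, in RBE cells whose histone chaperone subunit CHAF1A was knocked down. Members were the rows of the deposited count table whose Ensembl identifier belongs to a protein-coding gene named as a numbered collagen chain (COL, number, A, number), a laminin alpha, beta or gamma chain (LAMA, LAMB, LAMC), or an integrin alpha or beta subunit (ITGA with a number, V, E or X, and ITGB with a number). No measured value entered that choice. The rule found 79 members among the 63186 rows of the table: 44 collagen genes, 12 laminin genes and 23 integrin genes. Of these, 55 had enough counts to be tested (25 collagen, 10 laminin and 20 integrin genes), and the other 24 are accounted for at the end of the results.

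Collagen chains wind into helical trimers that build fibrils, the sheet-like network of basement membranes, beaded filaments or anchoring fibrils, or that span the plasma membrane. Laminins are secreted trimers of an alpha, a beta and a gamma chain, and together with collagen IV they form the basement membrane on which epithelia such as bile ducts rest. Integrins are the cell surface dimers of an alpha and a beta subunit that bind these proteins and connect them to the actin or keratin cytoskeleton.

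RBE is a human intrahepatic cholangiocarcinoma cell line, and CHAF1A is the large subunit of CAF-1, the chaperone that deposits histones on newly replicated DNA. All cells were grown in DMEM with serum and transfected with siRNA by lipofection at about 60% confluency. They received either a control siRNA (si-Ctrl, 3 libraries) or an siRNA against CHAF1A (si-CHAF1A, 3 libraries), and total RNA was taken at 48 h. One cell line and one unnamed siRNA sequence or pool per arm limit what the groups stand for, and a transient transfection leaves an unmeasured share of cells untransfected.

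CHAF1A itself read 51.5, 59.8 and 51.0 CPM (counts scaled to library size with edgeR's TMM factors) in si-Ctrl 1 to 3, and 11.1, 12.9 and 11.2 CPM in si-CHAF1A 1 to 3. It fell by 2.21 on the log2 scale (SE 0.10, adjusted p = 2.57e-10, edgeR's quasi-likelihood test with Benjamini-Hochberg adjustment over 15911 tested genes), so the labels of all 6 libraries matched their target. Total counts ran from 15643381 to 20918997 per library. The groups separated on the first principal component (65.1% of the variance), and si-Ctrl 2 lay apart from the other control libraries on the second (-29.6 against 14.9 and 13.9, 11.2% of the variance). The cholangiocyte markers summed to 4324 to 4978 CPM in si-Ctrl and 5451 to 5997 CPM in si-CHAF1A, led by keratin genes. All 9 markers had enough counts to be tested. Of these, 5 were higher and 3 lower, with log2 fold changes from -0.67 to 2.20, so the sum does not speak for each marker. Over all tested genes 18.5% were higher and 19.3% lower.

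More of the matrix and integrin genes rose than fell. Of the 55 tested members, 29 were higher in si-CHAF1A (52.7%), 6 were lower (10.9%) and 20 did not pass the test at an adjusted p of 0.05. Over all tested genes, 18.5% were higher and 19.3% were lower by the same test. The median log2 fold change of the tested members was 0.32, against 0.00 for all tested genes. A rise of at least 2-fold was seen in 10 members (all-gene share 4.19%), and no member fell by that much (all-gene share 1.46%). In this bulk RNA, fewer cells of a type and less RNA per cell cannot be told apart.

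The filter on low counts keeps a gene that is abundant in either group alone, so 7 members entered the test although at least 1 library was below 0.578 CPM, the level of the filter. These were COL6A3, COL9A2, COL9A3, COL24A1, ITGA2B, ITGA8 and ITGA9, and all 7 were called higher. Among the 48 members at or above that level in every library, 22 were higher and 6 lower, with a median log2 fold change of 0.23. Of all 14148 genes held to the same level, 18.1% were higher and 21.3% were lower. The 10 members that rose at least 2-fold all had a mean of 4.06 CPM or less in si-Ctrl, but they include these 7, which the filter admitted only because they were high in si-CHAF1A, so no relation between level and rise is read from them. The 18 higher members above 10 CPM in si-Ctrl rose between 1.15-fold and 1.84-fold.

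**Figure D1:**
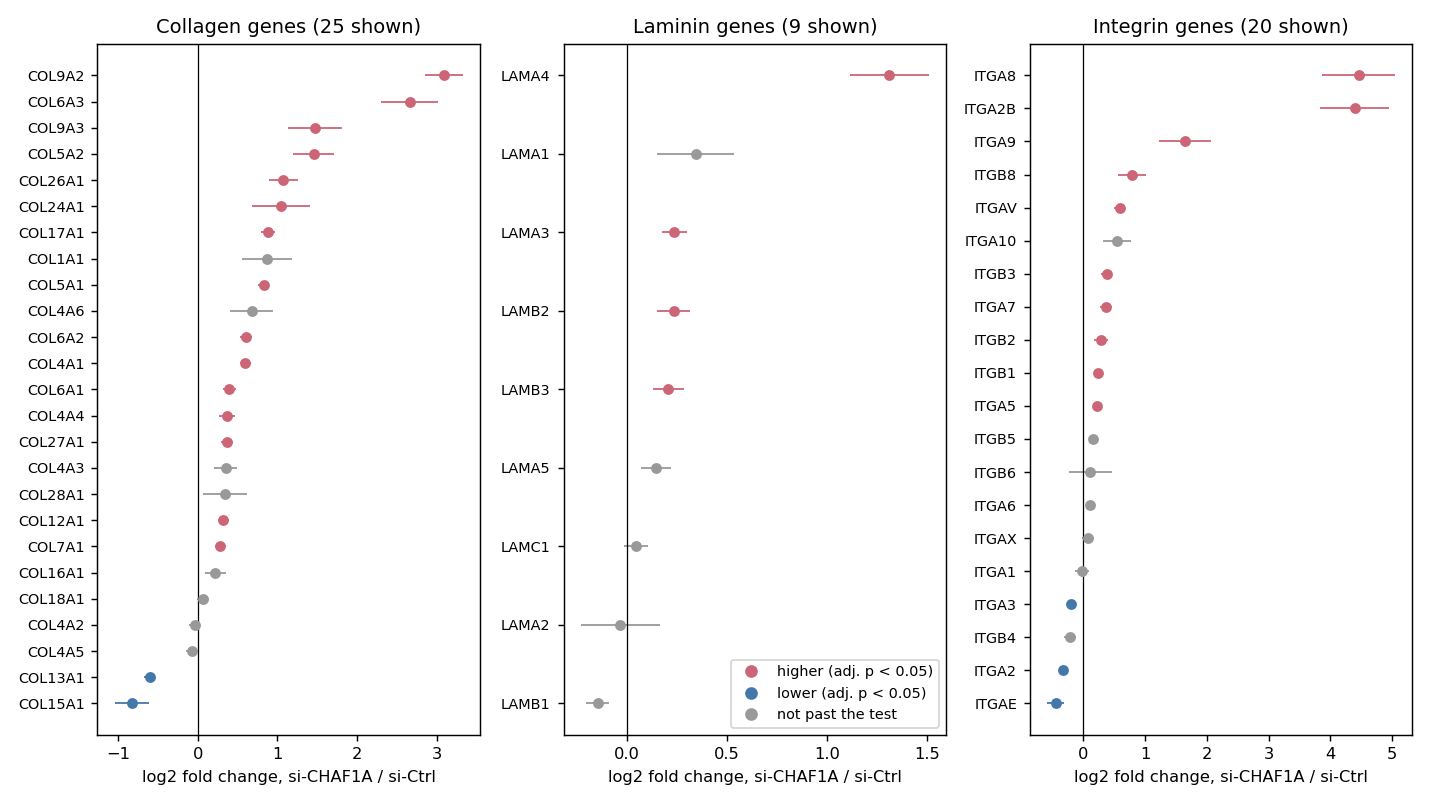
Log2 fold change of the tested members described here, si-CHAF1A over si-Ctrl (x axis), by gene (y axis) in 3 panels for collagens, laminins and integrins, with bars for 1 SE. Each panel has its own x range. Red points are members higher and blue points members lower at an adjusted p below 0.05, grey points did not pass: 15 of 25 collagen genes, 4 laminin genes and 10 of 20 integrin genes are red.

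Of the 3 families, collagens held the largest share of higher genes. Of the 25 tested collagen genes 15 were higher, 2 were lower and 8 did not pass, and the median log2 fold change was 0.40. Of the 21 at the filter level in every library, 11 were higher (52.4%) and 2 lower (9.52%), with a median of 0.37. The shares over all genes held to that level were 18.1% and 21.3%. Fibril-forming collagens were higher in 4 of 5 tested genes and beaded-filament and anchoring-fibril collagens in 4 of 4. Fibril-associated collagens were higher in 3 of 4, network-forming collagens in 2 of 6, and collagens outside these classes in 1 of 2. Falls were called only among the membrane-spanning and multiplexin collagens, counted together, with 1 higher and 2 lower of 4. The lower genes were COL13A1, which spans the membrane, and COL15A1, a multiplexin. Over all tested genes 18.5% were higher and 19.3% lower, and classes of 2 to 6 tested genes are too small to show a class trait. The class counts include COL24A1, COL6A3, COL9A2 and COL9A3, which passed the filter on low counts only through si-CHAF1A. Per kilobase of exon, the collagens with the highest levels in si-Ctrl were COL18A1 (32.1 ± 3.31 CPM per kb, SD, n = 3), COL6A1 (30.7 ± 3.55) and COL7A1 (27.2 ± 2.099), whose spreads overlap.

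Among fibril-forming collagens, COL5A1, the main chain of the collagen V that nucleates collagen I fibrils (chr9:134641774-134844843, GRCh38), read 136, 148 and 136 CPM in si-Ctrl and 267, 248 and 232 CPM in si-CHAF1A. All 3 knockdown libraries lay well above all 3 controls. COL5A1 rose by 0.83 on the log2 scale (SE 0.07, edgeR adjusted p = 2.18e-07). Its partner chain COL5A2 read 1.41, 0.859 and 1.20 CPM in si-Ctrl against 3.21, 2.99 and 3.25 CPM in si-CHAF1A, a log2 rise of 1.46 (SE 0.26, edgeR adjusted p = 0.000337). COL5A2 was thus measured at a small fraction of the COL5A1 level in both groups: per kilobase, 0.155 against 12.5 CPM in si-Ctrl. COL27A1, a fibrillar collagen of cartilage, rose by 0.37 (SE 0.07, edgeR adjusted p = 0.0011), with all 3 knockdown libraries above the controls. COL24A1 rose by 1.04 (SE 0.36, edgeR adjusted p = 0.0338) on 35 counts in si-Ctrl and 71 in si-CHAF1A. The COL24A1 call was lost without any one of si-Ctrl 1, si-Ctrl 2, si-CHAF1A 1 or si-CHAF1A 2, with edgeR adjusted p between 0.0565 and 0.138, and it was lost in DESeq2 (adjusted p = 0.137).

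For collagen I, the major fibrillar collagen of connective tissue, a single library stood out. COL1A1 read 7.87, 10.1 and 7.34 CPM in si-Ctrl and 23.4, 11.3 and 11.8 CPM in si-CHAF1A, so that si-CHAF1A 1 was set apart from the other knockdown libraries, which lay just above the controls. The log2 difference was 0.87 (SE 0.31) and did not pass (edgeR adjusted p = 0.0717). Without si-CHAF1A 1 it was 0.45 and passed narrowly (edgeR adjusted p = 0.0446). It also passed without si-CHAF1A 2 (1.05, adjusted p = 0.0151) or si-CHAF1A 3 (1.03, adjusted p = 0.0315), and in DESeq2 (0.87, adjusted p = 0.00174).

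The other collagen I chain, COL1A2, was not tested: it had 1, 0 and 0 counts in si-Ctrl and 92, 3 and 1 counts in si-CHAF1A. Nearly all of its reads were therefore in si-CHAF1A 1. COL3A1, the chain of collagen III, had 1, 6 and 0 counts in si-Ctrl and 8, 1 and 1 counts in si-CHAF1A. The fibroblast genes DCN and LUM, which encode the fibril-binding proteoglycans decorin and lumican, had 0 counts in every control library. DCN had 6, 0 and 1 counts and LUM had 2, 4 and 0 counts in si-CHAF1A.

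Over the whole list of 10 fibroblast and stellate cell markers, the summed level was 26.4 to 28.8 CPM in si-Ctrl and 47.5 to 54.2 CPM in si-CHAF1A. Of the 4 tested, 3 were higher by edgeR's test: ACTA2 (smooth muscle actin) by 1.25, PDGFRB (the PDGF receptor beta) by 2.04 and RGS5 (a pericyte gene) by 0.53 on the log2 scale. PDPN had 0 counts in all 6 libraries, and FAP had 0, 0 and 0 counts in si-Ctrl and 0, 0 and 1 in si-CHAF1A. The 7 endothelial markers summed to 2.52 to 4.22 CPM in si-Ctrl and 7.64 to 9.21 CPM in si-CHAF1A, with VWF the only 1 of 2 tested genes to pass (log2 2.54) and EMCN at 0 counts in all libraries. The 8 leukocyte markers summed to 19.9 to 24.8 CPM and 25.9 to 26.4 CPM, and ITGAM, at 21.0 and 25.2 CPM on average, supplied most of it. The part of other cell types in the collagen results was not tested.

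**Figure D2:**
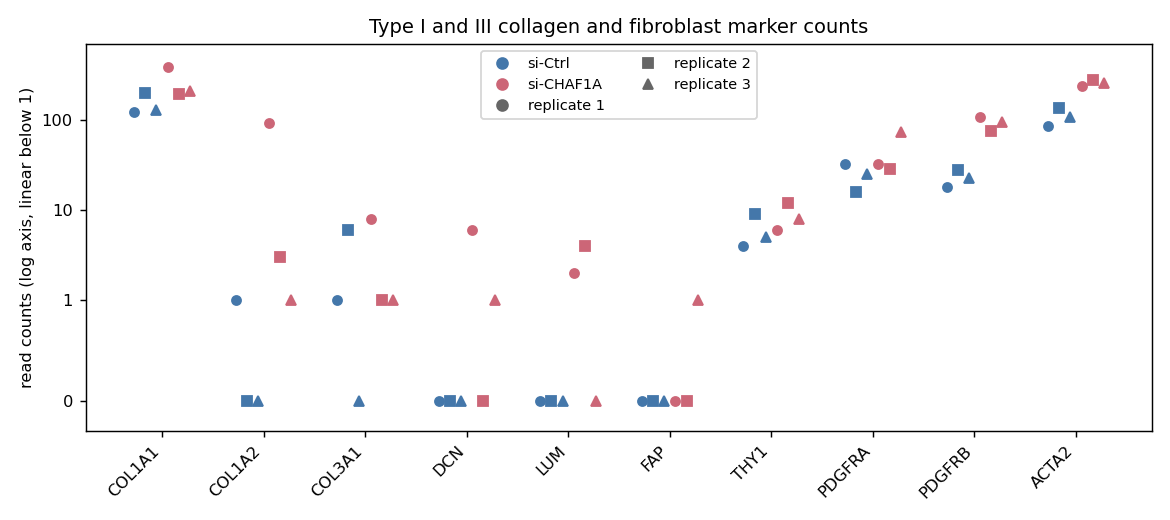
Read counts (y axis, log scale above 1 and linear below) of COL1A1, COL1A2, COL3A1 and fibroblast marker genes in each library, blue for si-Ctrl and red for si-CHAF1A, with a symbol for each replicate number. COL1A2 shows 92 counts in si-CHAF1A 1 against 3 and 1 in the other knockdown libraries, while PDGFRB and ACTA2 are higher in all 3 knockdown libraries.

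Collagen VI and VII, the beaded-filament and anchoring-fibril collagens, rose in all 4 tested genes, of which COL6A3 passed the filter only through si-CHAF1A. COL6A1 (chr21:45981737-46005050) read 154, 186 and 153 CPM in si-Ctrl and 229, 217 and 204 CPM in si-CHAF1A, a log2 rise of 0.40 (SE 0.08, edgeR adjusted p = 0.000951). COL6A2, its neighbour on chromosome 21, read 97.9, 107 and 90.5 CPM against 159, 141 and 150 CPM, a log2 rise of 0.61 (SE 0.08, edgeR adjusted p = 1.36e-05). The groups did not overlap for either chain.

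COL6A3, the third chain that the secreted collagen VI trimer needs, was measured far below both. It read 0.576, 0.404 and 0.287 CPM in si-Ctrl and 3.39, 2.70 and 1.96 CPM in si-CHAF1A. Its 22 control counts and 139 knockdown counts give a ratio of 6.41 (95% counting interval 4.07 to 10.6). The fitted log2 rise was 2.66 (SE 0.35, edgeR adjusted p = 2.7e-05). Per kilobase it still stood at 0.137 CPM in si-CHAF1A, against 40.6 for COL6A1 and 27.9 for COL6A2.

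COL7A1, the chain of the anchoring fibrils beneath epithelia, read 301, 325 and 279 CPM in si-Ctrl and 364, 363 and 376 CPM in si-CHAF1A. Every knockdown library was above every control, by a smaller step than for collagen VI. The log2 rise was 0.29 (SE 0.07, edgeR adjusted p = 0.00304).

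The largest fold in the collagens was that of COL9A2, a chain of the fibril-associated collagen IX of cartilage (chr1:40300487-40317813). It read 0.576, 0.859 and 0.631 CPM in si-Ctrl and 5.47, 5.74 and 6.73 CPM in si-CHAF1A. The 3 knockdown libraries were close to each other and far above the controls, and the log2 rise was 3.09 (SE 0.24, edgeR adjusted p = 9.32e-08). Of the other collagen IX chains, COL9A3 rose by 1.47 (SE 0.34, edgeR adjusted p = 0.00301) from 46 to 125 counts. COL9A1 was not tested, with 1 count in si-Ctrl and 10 in si-CHAF1A. COL12A1, which coats fibrils in dense connective tissue, rose by 0.32 (SE 0.07, edgeR adjusted p = 0.00174), and COL16A1 did not pass (0.22, edgeR adjusted p = 0.197). Without si-Ctrl 2, COL16A1 passed at 0.37 (edgeR adjusted p = 0.0124).

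Membrane-spanning collagens moved in opposite directions. COL17A1, the hemidesmosome collagen that binds basal epithelial cells to laminin-332 (chr10:104031286-104085957), read 22.6, 26.4 and 27.8 CPM in si-Ctrl and 46.2, 48.8 and 46.8 CPM in si-CHAF1A. It rose by 0.88 (SE 0.09, edgeR adjusted p = 1.62e-06). COL13A1, a collagen of cell contacts (chr10:69801867-69964275), read 86.5, 87.5 and 87.3 CPM in si-Ctrl and 58.4, 58.6 and 55.2 CPM in si-CHAF1A. It fell by 0.60 (SE 0.07, edgeR adjusted p = 4.11e-06). For both genes the libraries of a group lay close together and the groups were clear of each other.

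The multiplexins are basement membrane collagens that carry sugar chains and release antiangiogenic fragments. COL15A1 fell by 0.83 (SE 0.21, edgeR adjusted p = 0.00617), from 6.84, 5.81 and 4.36 CPM to 2.497, 3.96 and 3.09 CPM. COL18A1 read 256, 306 and 258 CPM in si-Ctrl and 309, 265 and 287 CPM in si-CHAF1A. These ranges overlap and the difference of 0.07 did not pass (edgeR adjusted p = 0.543). Without si-Ctrl 2 it was 0.15 and passed (edgeR adjusted p = 0.00789). Exons of COL18A1 share 16.4% of their length with SLC19A1 on the opposite strand. In the last class, COL26A1 rose by 1.08 (SE 0.18, edgeR adjusted p = 0.000214) and COL28A1 did not pass (0.34, adjusted p = 0.365).

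Collagen IV, the network of basement membranes, is encoded by gene pairs that lie head to head and are read in opposite directions. Its windows are shown because the chains of each pair start close together and their responses are set side by side. RefSeq promoter windows (GRCh38.p14, 250 bases before to 50 after the start) matched 57 of the 79 members. In the windows given here capitals mark the bases that also lie in the window of the partner gene. By the RefSeq starts, for COL4A1 (minus strand, chr13:110307108-110307407) 226 of 300 bases are shared with COL4A2, and the starts are 127 bp apart. For COL4A3 (plus strand, chr2:227164374-227164673) 82 bases are shared with COL4A4 (starts 419 bp apart), and for COL4A5 (plus strand, chrX:108439588-108439887) 121 bases are shared with COL4A6 (starts 380 bp apart). These distances depend on the annotation: between the gene starts of GENCODE 29, whose coordinates are given for the genes themselves, they are 1421 bp for COL4A1 and COL4A2, which then overlap, 112 bp for COL4A3 and COL4A4 and 347 bp for COL4A5 and COL4A6.
COL4A1: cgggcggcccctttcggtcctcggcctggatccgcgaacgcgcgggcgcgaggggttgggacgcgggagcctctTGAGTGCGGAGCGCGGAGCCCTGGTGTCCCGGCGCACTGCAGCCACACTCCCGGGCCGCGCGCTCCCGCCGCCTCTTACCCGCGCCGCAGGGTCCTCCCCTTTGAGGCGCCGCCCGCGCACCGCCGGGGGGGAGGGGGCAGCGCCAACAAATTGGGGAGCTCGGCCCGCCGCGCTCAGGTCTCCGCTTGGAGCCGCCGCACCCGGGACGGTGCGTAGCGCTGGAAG
COL4A3: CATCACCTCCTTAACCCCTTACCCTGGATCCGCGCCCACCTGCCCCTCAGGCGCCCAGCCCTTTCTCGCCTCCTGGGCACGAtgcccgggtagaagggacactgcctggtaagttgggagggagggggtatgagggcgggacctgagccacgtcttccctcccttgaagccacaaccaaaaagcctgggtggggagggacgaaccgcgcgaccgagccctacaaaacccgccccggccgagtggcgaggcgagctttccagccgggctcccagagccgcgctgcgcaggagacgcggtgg
COL4A5: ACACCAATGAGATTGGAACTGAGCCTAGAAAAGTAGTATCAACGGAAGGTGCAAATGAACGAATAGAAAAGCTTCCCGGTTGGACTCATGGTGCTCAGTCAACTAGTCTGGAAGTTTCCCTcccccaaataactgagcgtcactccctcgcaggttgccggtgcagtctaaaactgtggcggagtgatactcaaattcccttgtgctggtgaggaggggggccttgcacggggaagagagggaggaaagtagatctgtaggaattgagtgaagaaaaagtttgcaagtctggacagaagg

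The windows were searched on both strands for the TATA box core TATAAA, for the CCAAT box core (CCAAT) and for the GC box core GGGCGG, none of which lies within another. The COL4A1 window holds the CCAAT and GC box cores, the COL4A3 window the GC box core, and the COL4A5 window the CCAAT core. The TATA box core was in none of the 3. Over 27303 RefSeq promoter windows, 12.0% hold the TATA box core, 35.7% the CCAAT core and 44.6% the GC box core. Over the 57 matched members the shares were 10.5%, 24.6% and 54.4%, and the median GC content was 65.7% against 58.3% for all windows.

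COL4A1 (chr13:110148963-110307233) read 48.5, 51.3 and 50.7 CPM in si-Ctrl and 78.4, 71.6 and 77.9 CPM in si-CHAF1A, a log2 rise of 0.60 (SE 0.07, edgeR adjusted p = 8.65e-06). COL4A2 (chr13:110305812-110513209) read 279, 323 and 286 CPM against 303, 279 and 285 CPM, which overlap, and its difference of -0.03 (SE 0.07) did not pass (edgeR adjusted p = 0.734). The log2 ratio of COL4A1 to COL4A2 was -2.56 ± 0.08 (SD, n = 3) in si-Ctrl and -1.93 ± 0.05 in si-CHAF1A, and these values did not overlap. COL4A3 and COL4A4 differed by similar amounts, 0.35 (SE 0.15, edgeR adjusted p = 0.0691) and 0.37 (SE 0.10, edgeR adjusted p = 0.00926), and their log2 ratio was -1.52 ± 0.18 in si-Ctrl and -1.53 ± 0.10 in si-CHAF1A. The COL4A4 call was lost without si-CHAF1A 2 (edgeR adjusted p = 0.055), and COL4A3 passed without si-Ctrl 3 (0.47, edgeR adjusted p = 0.032). COL4A5 (-0.07, adjusted p = 0.562) and COL4A6 (0.68, adjusted p = 0.0567) did not pass, and their log2 ratio, COL4A6 to COL4A5, was -4.43 ± 0.29 and -3.68 ± 0.24, which did not overlap either. COL4A6 passed without si-Ctrl 2 (0.80, edgeR adjusted p = 0.0425). The 9 ratios given for partner chains were chosen after the values were seen. With 3 libraries per group, an exact permutation test over libraries cannot give a p below 0.1, so none could pass and no test result is read from them.

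Summed over all 44 collagen genes, the level was 1758 ± 118 CPM (SD, n = 3) in si-Ctrl and 2157 ± 72.9 CPM in si-CHAF1A, a ratio of 1.23, and the knockdown libraries all lay above the controls. Collagen IV alpha 1 and 2 together summed to 346 ± 24.6 and 365 ± 15.2 CPM, with overlapping libraries, since COL4A2 makes up 85.5% of that sum in si-Ctrl.

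Laminin genes changed in both directions. Of 10 tested genes 4 were higher (40%), 1 was lower (10%) and 5 did not pass, with a median log2 fold change of 0.17. The shares over all tested genes were 18.5% higher and 19.3% lower. By chain, 2 of 5 alpha genes and 2 of 3 beta genes were higher, too few to read as a trait of a chain. Both beta calls, LAMB2 and LAMB3, depended on single libraries. The summed level was 2309 ± 151 CPM in si-Ctrl and 2342 ± 31.5 CPM in si-CHAF1A, with overlapping libraries. Per kilobase, LAMC1 (64.4 ± 1.43 CPM per kb) and LAMB1 (63.5) were highest in si-Ctrl and did not differ beyond their spread, followed by LAMB3 (44.2 ± 4.79) and LAMA5 (43.3 ± 4.73).

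LAMA3 and LAMB3 are the alpha and beta chains of laminin-332, the laminin of epithelial hemidesmosomes. LAMA3 read 89.3, 87.0 and 87.4 CPM in si-Ctrl and 105, 102 and 104 CPM in si-CHAF1A, a log2 rise of 0.24 (SE 0.06, edgeR adjusted p = 0.00773) that was small but clear of the control libraries.

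LAMB3 read 194, 233 and 195 CPM in si-Ctrl and 253, 239 and 226 CPM in si-CHAF1A. Its si-Ctrl 2 value lay within the knockdown range, and the log2 rise of 0.21 (SE 0.08) passed only narrowly (edgeR adjusted p = 0.0461). The log2 ratio of LAMB3 to LAMA3 was 1.23 ± 0.17 in si-Ctrl and 1.21 ± 0.08 in si-CHAF1A, with overlapping libraries.

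LAMB2, the beta chain of neuromuscular and kidney laminins, read 103, 123 and 97.9 CPM in si-Ctrl and 130, 121 and 130 CPM in si-CHAF1A. Its groups overlapped through si-Ctrl 2, and it rose by 0.23 (SE 0.08, edgeR adjusted p = 0.0341). The calls of both LAMB2 and LAMB3 depended on single libraries. Leaving out si-Ctrl 1, si-Ctrl 3 or any one si-CHAF1A library ended each call, with edgeR adjusted p of 0.058 to 0.18 for LAMB2 and 0.0638 to 0.202 for LAMB3.

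Laminin-511 is the broad basement membrane laminin of adult epithelia. None of its chains passed: LAMA5 read 586, 696 and 574 CPM in si-Ctrl and 707, 654 and 689 CPM in si-CHAF1A (0.14, edgeR adjusted p = 0.142). LAMB1 read 517, 538 and 495 CPM against 467, 459 and 473 CPM (-0.15, edgeR adjusted p = 0.0612), with no overlap. LAMC1 read 542, 553 and 529 CPM against 553, 580 and 542 CPM (0.05, edgeR adjusted p = 0.583). Without si-Ctrl 2, LAMA5 passed as higher (0.23, edgeR adjusted p = 1.74e-06) and LAMB1 as lower (-0.12, edgeR adjusted p = 0.00719), which DESeq2 also called (-0.16, adjusted p = 0.032). The summed laminin-511 level was 1676 ± 99.2 and 1708 ± 16.9 CPM.

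LAMA4, the alpha chain of vessel and muscle laminins (chr6:112108760-112254939), had the largest laminin fold, at a low level. It read 2.30, 2.27 and 2.12 CPM in si-Ctrl and 4.70, 5.34 and 6.62 CPM in si-CHAF1A, a log2 rise of 1.31 (SE 0.20, edgeR adjusted p = 8.5e-05). The remaining alpha chains did not pass: LAMA1 at 0.34 (adjusted p = 0.184) and LAMA2 at -0.03 (adjusted p = 0.91).

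**Figure D3:**
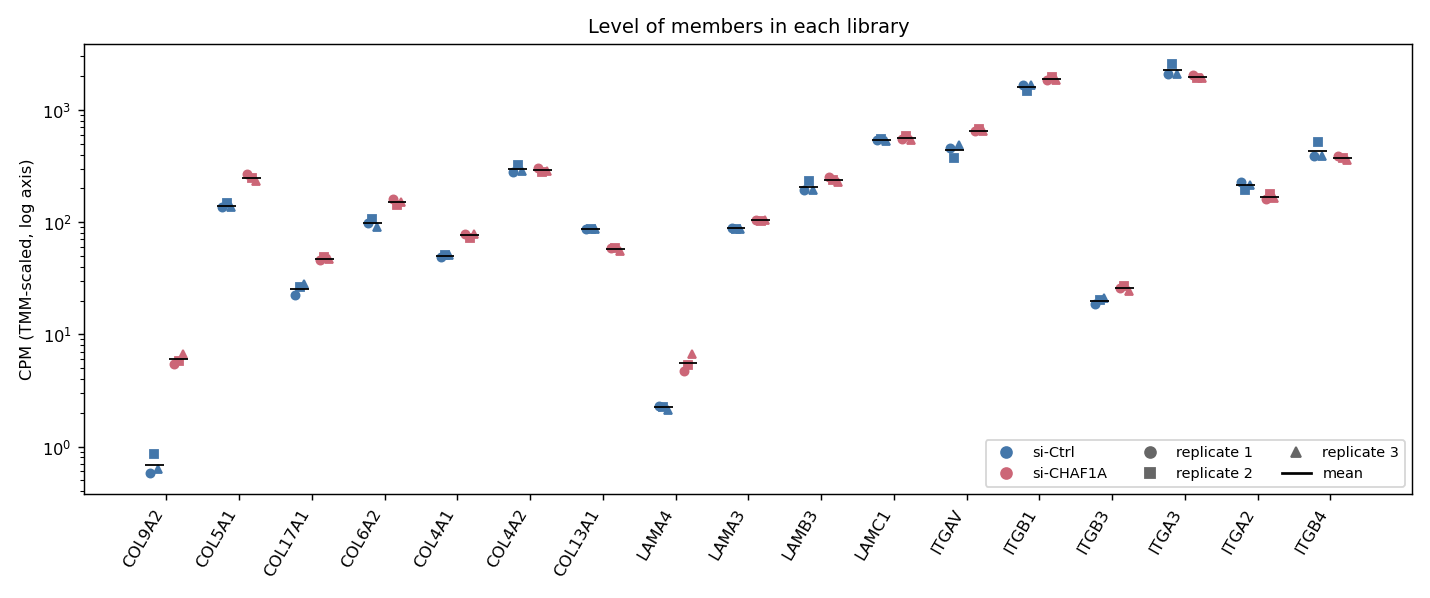
TMM-scaled CPM (y axis, log scale) of 17 collagen, laminin and integrin genes in each library, blue for si-Ctrl and red for si-CHAF1A, with a symbol for each replicate number and a line at the group mean. COL9A2 and LAMA4 start low and are clear of the controls, COL13A1 and ITGA2 lie below them, and si-Ctrl 2 is the highest control for ITGA3, ITGB4 and LAMB3.

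Among 20 tested integrin genes 10 rose, 3 fell and 7 did not pass the test, with a median log2 fold change of 0.22. Of the 17 at the filter level in every library, 7 rose (41.2%) and 3 fell (17.6%). The shares over all genes held to that level were 18.1% and 21.3%. Per kilobase ITGB1 (266 ± 18.7 CPM per kb, SD, n = 3) and ITGA3 (230 ± 25.7) were the highest in si-Ctrl, with overlapping spreads, and ITGB4 (64.0 ± 10.6) and ITGAV (53.2 ± 7.29) followed. The alpha subunits that bind RGD motifs, found in fibronectin and vitronectin, were higher in 4 of 4 tested genes. ITGA8 and ITGA2B passed the filter on low counts only through si-CHAF1A, so their calls add nothing to a class pattern. Only ITGAV and ITGA5 were at the filter level in every library, and the ITGA5 call depended on single libraries. Of 3 collagen-binding alpha subunits, 1 fell and none rose. Of 3 laminin-binding alpha subunits 1 rose and 1 fell, as did 1 and 1 of the 3 remaining alpha subunits, and 4 of 7 beta subunits rose and none of the 7 fell. The riser among the remaining alpha subunits, ITGA9, also passed the filter only through si-CHAF1A. Over all tested genes 18.5% were higher and 19.3% lower, and these subunit classes are too small to be read against those shares.

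Among RGD-binding receptors ITGAV, the alpha V subunit (chr2:186590065-186680901), read 461, 369 and 482 CPM in si-Ctrl and 653, 669 and 642 CPM in si-CHAF1A. The 3 knockdown libraries lay close together above the controls, and ITGAV rose by 0.58 (SE 0.08, edgeR adjusted p = 4.68e-05). ITGA5, the fibronectin receptor subunit, rose by 0.21 (SE 0.07, edgeR adjusted p = 0.0196), from 227, 250 and 219 CPM to 273, 279 and 256 CPM. The ITGA5 call was lost without si-Ctrl 1, si-Ctrl 3, si-CHAF1A 1 or si-CHAF1A 2 (edgeR adjusted p 0.0667 to 0.113).

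ITGA8 and ITGA2B were barely detected in control cells. ITGA8, the nephronectin receptor subunit of mesenchyme (chr10:15513949-15720125), had 1, 0 and 2 counts in si-Ctrl and 21, 24 and 28 counts in si-CHAF1A, a ratio of 24.7 (95% counting interval 8.12 to 123). ITGA2B, the platelet fibrinogen receptor subunit (chr17:44372180-44389505), had 0, 2 and 2 counts against 23, 25 and 42 counts, a ratio of 22.8 (95% counting interval 8.62 to 85.6). Both were admitted by the filter on low counts only through si-CHAF1A. Both passed in edgeR's quasi-likelihood test (adjusted p = 2.48e-05 and 1.95e-05), and in all 10 alternative settings. The fitted log2 rise of ITGA8, 4.46 over all libraries, was 3.84 without si-Ctrl 2 and 5.31 without si-Ctrl 3, so its size depended on single control libraries. The 3 knockdown libraries carried these reads in like amounts, unlike those of COL1A2. Even so, ITGA8 stood at 0.186 and ITGA2B at 0.310 CPM per kb in si-CHAF1A, against 79.7 for ITGAV. The intervals cover counting error only.

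None of the 3 tested collagen-binding subunits passed as higher, against 18.5% of all tested genes, and so few genes cannot show a class trait. ITGA2, the main epithelial collagen receptor subunit (chr5:52989326-53094779), read 227, 194 and 215 CPM in si-Ctrl and 162, 179 and 165 CPM in si-CHAF1A. Its groups did not overlap, and it fell by 0.33 (SE 0.07, edgeR adjusted p = 0.0019). ITGA1 (-0.03, adjusted p = 0.871) and ITGA10 (0.55, adjusted p = 0.0686) did not pass, and ITGA11, with 7 counts in si-Ctrl and 20 in si-CHAF1A, had too few to be tested. ITGA10 passed as higher without si-Ctrl 1 (0.76, edgeR adjusted p = 0.0217).

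Laminin-binding subunits were mixed. ITGA3 (chr17:50055968-50090481) read 2105, 2540 and 2104 CPM in si-Ctrl and 2042, 1935 and 1905 CPM in si-CHAF1A, and it fell by 0.20 (SE 0.07, edgeR adjusted p = 0.0453). All knockdown values were below all controls, but si-Ctrl 2 was far above the other controls, and without it the fall was 0.11 (edgeR adjusted p = 0.0118). The ITGA3 call was lost without any one of the si-CHAF1A libraries (edgeR adjusted p 0.0723 to 0.174). ITGA7, a muscle laminin receptor subunit, read 20.7, 22.3 and 21.3 CPM in si-Ctrl and 30.1, 25.2 and 27.8 CPM in si-CHAF1A, a log2 rise of 0.37 (SE 0.09, edgeR adjusted p = 0.00566). ITGA6 did not pass (0.11, adjusted p = 0.174).

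The hemidesmosome subunit ITGB4, which pairs with ITGA6, read 392, 516 and 391 CPM in si-Ctrl and 385, 371 and 361 CPM in si-CHAF1A. Apart from si-Ctrl 2 the control values lay just above the knockdown range. The difference of -0.22 (SE 0.09) did not pass (edgeR adjusted p = 0.0675) and was -0.08 without si-Ctrl 2. It passed without si-Ctrl 1 (-0.29, edgeR adjusted p = 0.0248) or si-Ctrl 3 (-0.29, edgeR adjusted p = 0.0281), and in DESeq2 (-0.23, adjusted p = 0.0496).

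ITGB1, the common partner of most alpha subunits, read 1678, 1473 and 1655 CPM in si-Ctrl and 1835, 1944 and 1864 CPM in si-CHAF1A. It rose by 0.23 (SE 0.06, edgeR adjusted p = 0.00977), with all knockdown libraries above the controls. Its call was lost without si-CHAF1A 2 (edgeR adjusted p = 0.0638). ITGB3, the vitronectin receptor subunit, read 18.6, 20.2 and 20.9 CPM against 26.1, 27.1 and 24.2 CPM, a log2 rise of 0.37 (SE 0.09, edgeR adjusted p = 0.00495). Exons of ITGB3 share 51.6% of their length with a same-strand gene model, AC068234.1, so reads of the 2 may be split or lost.

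Of the other beta subunits, ITGB8 and ITGB2 rose as well. ITGB8, which with alpha V binds latent TGF-beta, rose by 0.79 (SE 0.23, edgeR adjusted p = 0.0126), with 3.33, 1.82 and 2.24 CPM in si-Ctrl and 4.399, 4.31 and 3.93 CPM in si-CHAF1A. ITGB2, the leukocyte beta subunit, rose by 0.28 (SE 0.11, edgeR adjusted p = 0.0476), and this call was lost in 8 of 10 alternatives, among them each one that left out a library other than si-Ctrl 2. ITGB5 (0.16, adjusted p = 0.0802) and ITGB6 (0.11, adjusted p = 0.827) did not pass, though ITGB5 passed without si-Ctrl 2 (0.22, edgeR adjusted p = 4.92e-05).

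Of the remaining alpha subunits, ITGA9 rose by 1.64 (SE 0.43, edgeR adjusted p = 0.00643), from 0.384, 0.303 and 0.229 CPM to 1.07, 1.03 and 0.785 CPM. That is 16 counts in si-Ctrl and 50 in si-CHAF1A, and in DESeq2 it missed the threshold (adjusted p = 0.0505). ITGA9 passed the filter on low counts only through si-CHAF1A. ITGAE, which binds E-cadherin, fell by 0.45 (SE 0.14, edgeR adjusted p = 0.0158), a call lost without si-Ctrl 1 (adjusted p = 0.0731) or si-CHAF1A 1 (adjusted p = 0.0802). ITGAX did not pass (0.07, adjusted p = 0.6).

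Alpha subunits were also set against their beta partners in each library. The log2 ratio of ITGAV to ITGB1 was -1.88 ± 0.11 (SD, n = 3) in si-Ctrl and -1.52 ± 0.03 in si-CHAF1A. ITGA3 to ITGB1 was 0.49 ± 0.26 and 0.06 ± 0.08, and ITGA2 to ITGB1 was -2.92 ± 0.03 and -3.48 ± 0.03. ITGA6 to ITGB4 was -0.996 ± 0.28 and -0.68 ± 0.06. None of these 4 ratios overlapped between groups, but those to ITGB1 share a denominator and all were chosen after the values were seen. With 3 libraries per group, an exact permutation test over libraries cannot give a p below 0.1, so no ratio could pass. Summed over all 15 alpha genes the level was 3430 ± 184 CPM in si-Ctrl and 3380 ± 80.5 CPM in si-CHAF1A, of which ITGA3 made up 65.6% in si-Ctrl, and the libraries overlapped. The 8 beta genes summed to 2318 ± 23.9 and 2577 ± 42.8 CPM, with ITGB1 at 69.1% of the control sum, and did not overlap.

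**Figure D4:**
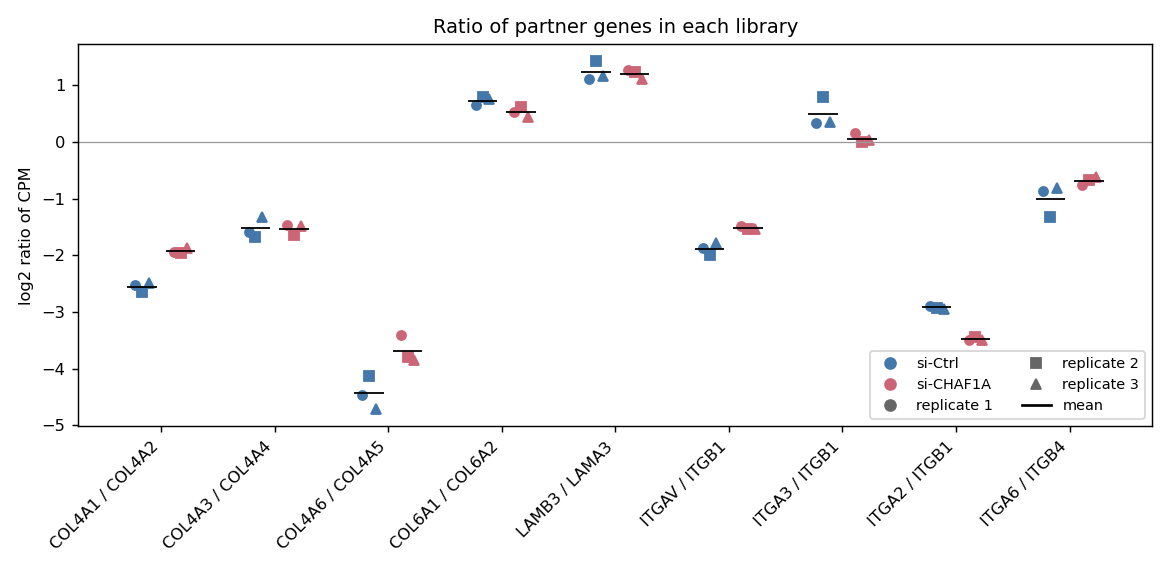
Log2 ratio of the CPM of 2 partner genes (y axis) in each library for 9 pairs, blue for si-Ctrl and red for si-CHAF1A, with a symbol for each replicate number and a line at the group mean. LAMB3 to LAMA3 stays level, COL4A1 rises against COL4A2 from -2.56 to -1.93, and COL4A3 to COL4A4 stays at -1.52 and -1.53.

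The genes around these families were counted in the same fit, from lists of pathway members rather than by how they moved. Over all tested genes, 18.5% were higher and 19.3% lower by the same test. Of 30 tested collagen processing enzymes and chaperones, 11 were higher (36.7%) and 6 lower (20%, near the all-gene share), with a median of 0.04. PLOD2, which hydroxylates lysines for collagen crosslinks, fell by 1.22, and ADAMTS3, a procollagen protease, fell by 0.99. CRTAP, part of the prolyl 3-hydroxylase complex, fell by 0.39, while P4HA2, a prolyl 4-hydroxylase subunit, rose by 0.71. Of 25 other matrix ligands 9 were higher (36%) and 4 lower (16%), with a median of 0.35. The 4 with the smallest adjusted p all rose: the integrin ligand THBS1 by 0.68, fibronectin FN1 by 0.78, the collagen chaperone SPARC by 1.52 and CCN2 by 0.73.

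Of 14 other collagen and laminin receptors 4 were higher (28.6%, against 18.5% of all tested genes) and 2 lower (14.3%, against 19.3%), with a median of 0.15. The syndecan SDC4 rose by 1.16, the collagen uptake receptor MRC2 by 0.87 and the laminin receptor dystroglycan (DAG1) by 0.61, while SDC2 fell by 0.62. In the integrin adhesion complex, the proteins that tie integrins to actin, 13 of 40 were higher (32.5%) and 4 lower (10%), with a median of 0.11. The 4 with the smallest adjusted p were the tensins TNS4 (1.64), TNS1 (0.93) and TNS2 (0.54) and the scaffold NEDD9 (0.79). Of 21 matrix proteases and protease inhibitors, 11 rose (52.4%) and 5 fell (23.8%), with a median of 0.42. MMP24 rose by 1.31, and the plasminogen activation genes PLAU and PLAUR fell by 1.13 and 1.49. Of 19 TGF-beta signalling genes, 6 rose (31.6%) and 4 fell (21.1%, near the all-gene share), with a median of 0.11. TGFBI, LTBP1 and SKI were higher by 0.53, 0.65 and 0.49, and SMAD2 was lower, at -0.61. Each of these named genes passed edgeR's quasi-likelihood test.

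**Figure D5:**
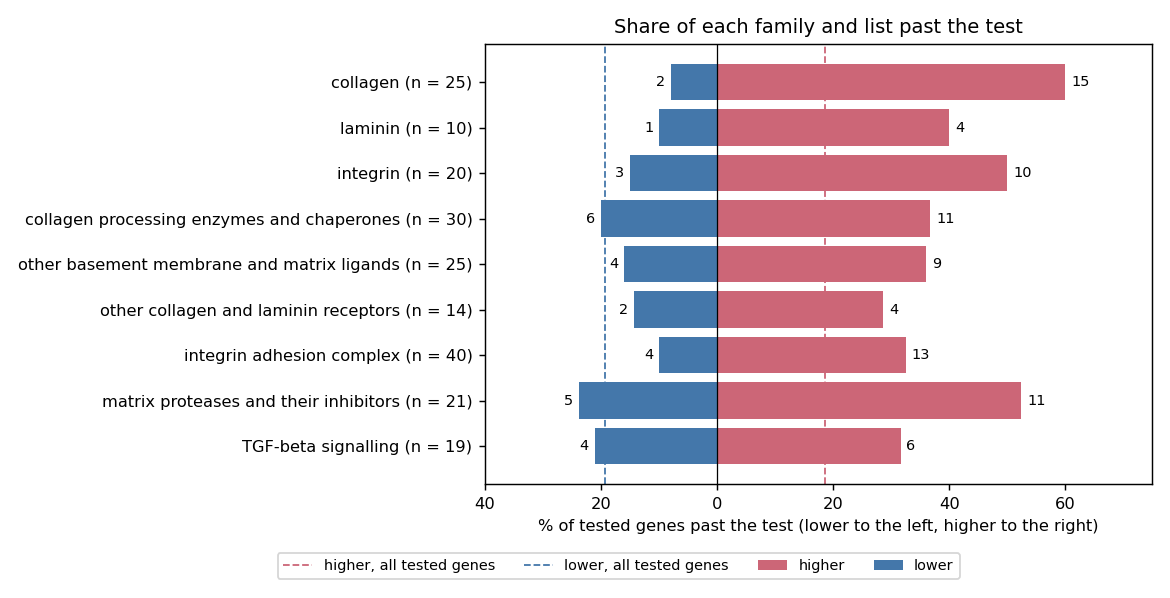
Share of the tested genes of each family and list that passed the test (x axis, in percent), higher to the right in red and lower to the left in blue, with the number of genes at the end of each bar. Dashed lines give the shares over all tested genes, 18.5% higher and 19.3% lower: collagens reach 60% higher and 8% lower. The bars include the collagen and integrin genes that passed the filter on low counts only through si-CHAF1A.

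The 24 members that were not tested comprised 19 collagen, 2 laminin and 3 integrin genes. Each had between 3 and 97 counts over the 6 libraries, and other than COL1A2 none exceeded 18 counts in any library. More counts were in si-CHAF1A than in si-Ctrl for 22 of them, and COL10A1 and LAMB4 had fewer. Some differed by a single count, such as ITGA4 (1 in si-Ctrl and 2 in si-CHAF1A). The share over all untested genes was not computed, so this count is not read as a trait of these families. COL14A1, a fibril-associated collagen, had 0 counts in si-Ctrl and 2, 6 and 3 in si-CHAF1A. Set against an assumed floor of 3 counts over the control group, the ratio would be 3.72. The exact 95% counting interval of the ratio starts lower, at 2.55. COL8A1 had 1 count against 9 (ratio 9.13, 95% counting interval 1.27 to 400.3) and COL20A1 had 1 against 11 (ratio 11.2, 1.62 to 480.5), so their size is hardly bounded.

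COL11A2, with 3 counts in all, cannot be read as silent. It lies in the major histocompatibility region of chromosome 6 (chr6:33162681-33192499), where only 8 of the 55 other protein-coding genes within 1 Mb had at least 100 counts, against 62.3% of protein-coding genes in the whole table. The tubulin gene TUBB, which lies in the same region, had 25 counts over all 6 libraries. The collagen receptor DDR1 and the matrix gene TNXB lie there too, with 6 counts and 1 count, and were not tested either.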

How the data were processed

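Total RNA of 6 RBE samples was sequenced with 150 bp reads from strand-specific libraries, per the labels' protocols and design text. The authors deposited raw counts per Ensembl gene; fastp 0.20.1, HISAT2 2.1.0, SAMtools 1.9, featureCounts 2.0.1, StringTie 2.1.4 and the build hg38 are named per the submitters' processing notes. The annotation release, strand setting and treatment of multi-mapped reads are not named there, nor anywhere else in the sources used here. Columns headed NC (read as negative control) and si were matched to si-Ctrl and si-CHAF1A by number. The design text calls the samples biological replicates without saying how they were separated, so the p-values cover only the variation among these libraries, which may be technical.

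Symbols came from a table of Ensembl identifiers (62665 of 63186 rows), gene types, positions and exon lengths from GENCODE 29 (58173 rows), and promoters from RefSeq. A total of 27527 rows had no count. Counts were filtered by filterByExpr, scaled by TMM and tested with edgeR 4.0.16 (glmQLFit and glmQLFTest, two-sided, R 4.3.3) without covariates; edgeR's biological coefficient of variation was 8.12%. Levels are CPM (counts scaled by library total and TMM factor), also divided by exon length for comparing genes. Fold changes are fitted values on the log2 scale. Count ratios carry exact 95% intervals. The procedure was tested on simulated data.

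Alternatives were DESeq2 1.42.0, RLE size factors, no filter, each library left out in turn and the replicate number as a block. Members, lists and tests were chosen with earlier results of these data known. Library values are given for up to 7 members of each family with the smallest adjusted p, the 3 with the highest level per kilobase, and the chains of laminin-332, laminin-511 and collagen IV; in each list up to 4 genes with the smallest adjusted p are named. Some genes that this rule names are not reported here, though the counts of families and lists include them. Other genes named with values were picked after these were seen.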

Additional observations from a re-analysis of the deposited data

How the results depend on the processing

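Of the 35 called members, 25 kept their call under all 10 alternatives and 10 lost it in at least 1: COL4A4, COL24A1, LAMB2, LAMB3, ITGA3, ITGA5, ITGA9, ITGAE, ITGB1 and ITGB2. Over the 3 families 23 to 33 members were higher and 4 to 7 lower when 1 library was left out. By family this was 14 to 17 higher and 2 lower for collagens, 2 to 5 higher and 1 to 2 lower for laminins, and 7 to 11 higher and 1 to 4 lower for integrins. In each family the most genes were higher without si-Ctrl 2, as was the case over all genes, with 3519 of 16503 higher. The fewest higher over all genes was 2346 of 16328, without si-CHAF1A 3. Genes called lower over all genes ran from 2358 of 16437, without si-CHAF1A 2, to 3709 of 16503, without si-Ctrl 2. DESeq2 called 26 members higher and 8 lower (2 laminins lower), and 2375 higher and 2746 lower of all 18367 genes with an adjusted p. Other receptors ranged from 4 to 8 higher and 1 to 4 lower without 1 library, with 1 lower under RLE size factors and with no filter. The adhesion complex had 7 lower in DESeq2 and 2 to 7 without 1 library, and TGF-beta genes had 2 to 4 lower. The COL4A2 difference ran from -0.077 to 0.027 when 1 library was left out, and was above 0 only without si-Ctrl 2. No filter added a call for COL14A1 (edgeR adjusted p = 0.0315).

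The replicate number as a block called 2675 of all 15911 tested genes higher and 2723 lower. Among members it gave 26 higher and 5 lower, with 2 laminins higher and 1 other receptor lower. It ended the calls of COL24A1, LAMB2, LAMB3, ITGA3 and ITGB2 and passed COL1A1. The deviations of same-numbered libraries from their group means had correlations of -0.09, -0.06 and -0.00. With so few libraries per group these values cannot decide whether a number marks a shared batch, which was not tested.

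Log2 ratios of summed levels depended on the most abundant gene. Without it, they were 0.26 for integrin alpha genes, -0.042 for integrin beta genes, -0.046 for laminin-511 and 0.60 for collagen IV alpha 1 and 2, against -0.02, 0.15, 0.03 and 0.08 with it. With unscaled CPM the integrin beta value was 0.20. The cause of these shifts was not tested beyond the gene left out. At 15643381 to 20918997 counts per library, genes of a few counts, such as most of the 24 untested members, have hardly bounded folds. Exon sequence is shared with another gene, on either strand, in 27 of 55 tested members. The share is over 10% in 4: ITGB3 and ITGB6 on the same strand, which no strand setting resolves, and COL18A1 and LAMA1 on the opposite strand, where the setting is not known.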

Other observations

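Several genes related to these families fall outside the name rule. NTN4, a netrin that binds laminin gamma chains in basement membranes, read 112, 115 and 114 CPM in si-Ctrl and 37.9, 35.5 and 39.3 CPM in si-CHAF1A. It fell by 1.60 on the log2 scale (SE 0.07, edgeR adjusted p = 1.86e-10), a larger fall than that of any tested collagen, laminin or integrin gene. NTN1, the axon guidance netrin, rose by 1.06 (SE 0.17, edgeR adjusted p = 0.000171), from 3.01 ± 0.39 to 6.29 ± 0.42 CPM (SD, n = 3). MATN3, a matrilin of cartilage matrix, rose by 0.39 (edgeR adjusted p = 0.0432). ITGAM, the alpha subunit of a leukocyte integrin that the numbered names leave out, rose by 0.26 (edgeR adjusted p = 0.0498), from 21.0 ± 2.42 to 25.2 ± 0.18 CPM. These genes were picked after their values were seen. EMILIN1 (-0.15, edgeR adjusted p = 0.764), MATN2 (0.11, edgeR adjusted p = 0.325) and ITGBL1 (0.04, edgeR adjusted p = 0.937) did not pass.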
